A study of Mus musculus with 6 samples.

Results

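Very broad acetylated domains of fat cells were taken from the list of regions carrying acetylated histone H3 lysine 9 (H3K9Ace) in 3T3-L1 adipocytes. They are the 744 autosomal regions of at least 10 kb, among 50496 autosomal regions in all, and they were selected on their called width, so width and number are given as a description and support nothing. ChIP-seq (chromatin immunoprecipitation followed by sequencing) of H3K9Ace and of PPARγ was done in adipocytes obtained by differentiating 3T3-L1, a mouse preadipocyte line, with no further treatment named. The cells set beside them were peritoneal macrophages of male C57BL/6 mice, elicited with 1 ml of 3% thioglycollate, collected after 3 days and kept for 24 h in culture, with at least 4 animals pooled per sequencing run; H3K9Ace, PPARγ, PU.1 and C/EBPβ were mapped there. There are 6 libraries, 1 per target and cell type, so no measurement has replicates and no test between conditions was possible. A cell line stands for fat tissue on one side and pooled inflammatory cells for macrophages on the other, and since the lists hold regions and no expression values, neither identity could be checked against expressed markers.

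H3K9Ace lies on nucleosomes of active promoters and enhancers. Most acetylated stretches are short, and unusually long ones are known from regulatory clusters and highly active loci. PPARγ, a nuclear receptor needed for adipogenesis, binds DNA together with RXR. Macrophages also contain it, but there PU.1, an ETS factor that sets up myeloid enhancers, and C/EBPβ, a leucine-zipper factor also used early in fat cell differentiation, mark much of the regulatory DNA.

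All coordinates are those of mouse build mm8, with starts counted from 1. The files pair no region with a gene, so the domains are named by position. Percentages are followed by 95% Wilson intervals and densities by exact 95% Poisson intervals; they hold for counting error alone, as if regions were independent draws. Sequencing depth is unknown. Adipocyte PPARγ was deposited as a final list of 2610 autosomal regions and as a combined list of 12165, named for 3 joined datasets whose joining is not described, and macrophage PPARγ as a final list of 1924 and a longer one of 18128.

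The 744 domains made up 1.47% of the autosomal adipocyte regions but 11.2% of their base pairs, 11.1 of 98.7 Mb. Their median width was 13.2 kb (quartiles 11.3 and 16.2 kb), against 1000 bp over all autosomal regions. Of them, 87 reached 20 kb and 19 reached 30 kb, and the widest spanned 67.4 kb. Other acetylated regions were often close by. The nearest other acetylated region was a median of 350 bp away, and 480 domains (64.5%) had one within 500 bp, against 52.6% of regions of 5 to 10 kb and 37.0% of all regions under 10 kb. A further domain lay within 10 kb of 189 domains, which formed 85 chains. The longest chain held 7 domains on chr2:167375801-167503750, a span of 128 kb. The bound of 10 kb cuts through a continuous range: of the 6 domains of exactly 10000 bp, 1 held final-list and 2 held combined-list adipocyte PPARγ, and of the 13 regions of 9950 bp, 2 held final-list and 6 held combined-list PPARγ.

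Domains were unevenly spread. Chromosome 6 held 93 of them, 12.5% against 8.64% of all autosomal acetylated regions. Chromosome 11 held 75 (10.1% against 8.30%), chromosome 2 held 71 (9.54% against 8.56%) and chromosome 19 held 64 (8.60% against 4.42%). Chromosomes 13 and 18 held 6 each (0.806% against 3.18% and 2.60%). Chromosome 19 had the highest share of its acetylated regions at this width, 2.87% (2.25 to 3.65), and chromosome 13 the lowest, 0.374% (0.172 to 0.814). Chromosomes 6, 15 and 17 were close to each other at 2.13%, 2.13% and 2.18%. In base pairs, domains made up 20.3% of the acetylated sequence of chromosome 19 and 2.63% of that of chromosome 13. Differences in chromosome copy number between the line and normal cells were not measured here, and their part in these shares was not tested.

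The 8 widest domains show how different the contents of a domain can be. The widest, chr6:52086851-52154250, held 2 PPARγ regions of the final adipocyte list and 3 of the combined one, and macrophage H3K9Ace covered 8.83% of it in 4 pieces. One of its PPARγ regions, chr6:52118682-52118996, had a fold of 16.8, the authors' enrichment value. The next widest, chr14:24289551-24348600 (59050 bp), was the opposite case: macrophage H3K9Ace covered 77.6% of it in 13 pieces, and it held 16 PU.1, 10 C/EBPβ and 2 macrophage PPARγ regions beside 1 final and 5 combined adipocyte PPARγ regions. No other domain held as many PU.1 regions.

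The third, chr19:47329251-47382750, was almost bare in macrophages. It had 3 final and 8 combined adipocyte PPARγ regions, the highest combined count of any domain, but a single macrophage acetylated piece of 800 bp and no PU.1, C/EBPβ or macrophage PPARγ. Its final-list regions had modest folds of 6.39, 5.99 and 6.20. The next domains of the ranking on chromosomes 6, 11 and 15 (chr6:114810951-114861350, chr11:120043151-120090950 and chr15:85489151-85536450) had between 4 and 5 combined PPARγ regions each. Macrophage acetylation covered 9.94% to 15.1% of them.

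The last of these 8 by width, chr6:90661001-90703700 and chr10:79540601-79582300, were acetylated in macrophages over 32.3% and 64.7% of their spans. The one on chromosome 6 held 4 final and 7 combined adipocyte PPARγ regions with 3 PU.1 regions. The one on chromosome 10 held no final and 2 combined regions with 11 PU.1 regions.

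**Figure D1:**
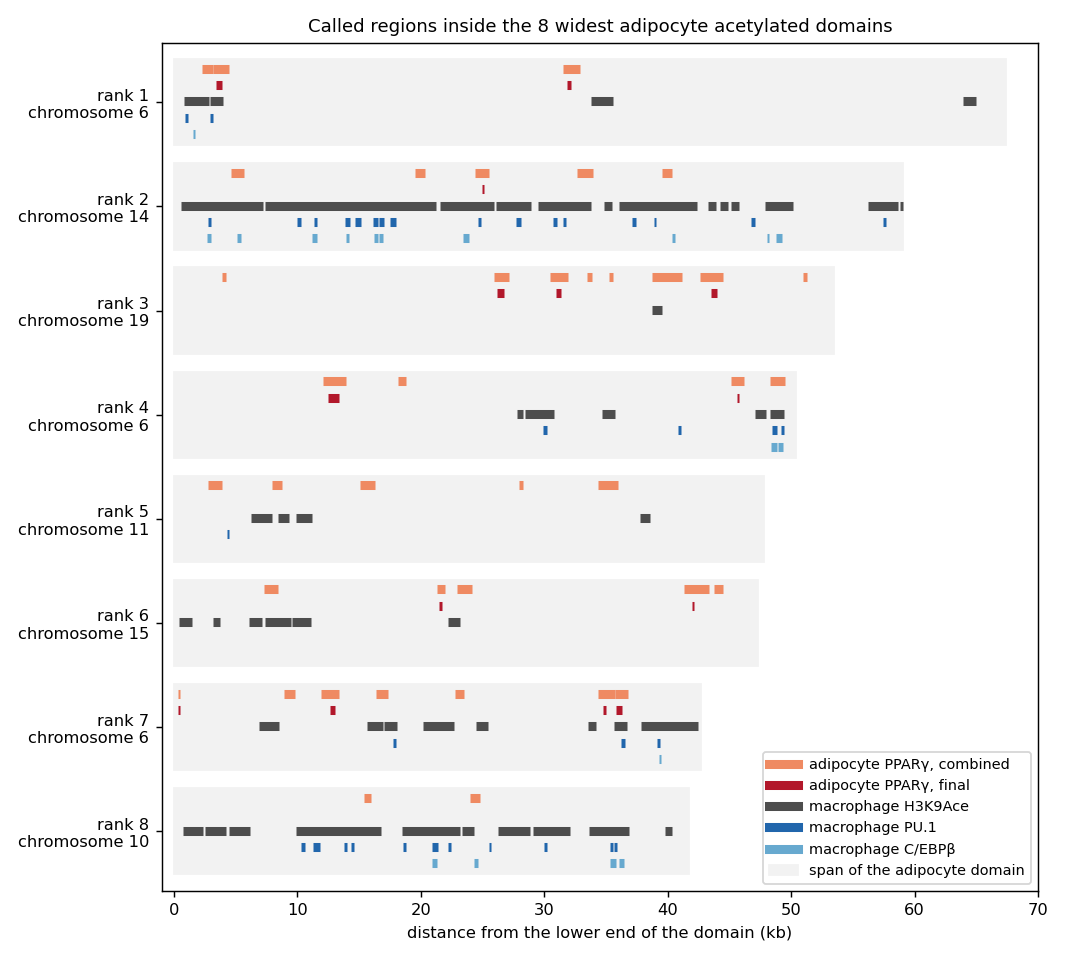
Map of the 8 widest adipocyte acetylated domains, widest at the top. The horizontal axis is the distance from the lower end of the domain in kb, the grey block is the span of the domain, and coloured bars are called regions of the combined and final adipocyte PPARγ lists and of macrophage H3K9Ace, PU.1 and C/EBPβ. The domain on chromosome 14 is filled with macrophage acetylation (77.6%), while the domain on chromosome 19 below it has 8 combined PPARγ regions and 1 macrophage piece of 800 bp.

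PPARγ was the factor mapped in the same cells as the domains. Of the 744 domains, 245 held at least 1 region of the final adipocyte list, 32.9% (29.6 to 36.4), against 3.85% of all autosomal adipocyte acetylated regions. With the combined list, 492 domains held at least 1, 66.1% (62.7 to 69.4), against a background of 14.4%. A wider span holds more of anything, so these shares are not a measure of preference; densities per Mb are given further on. All 322 final-list regions in domains also overlapped a combined region, so the lists are not independent of each other. The domains therefore fell into 245 with PPARγ in both lists, 247 with combined-list regions alone and 252 with neither.

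Single occupancy was the usual case in the final list. There 185 domains held 1 region, 48 held 2, 8 held 3, 3 held 4 and 1 held 5. In the combined list 236 domains held 1 region, 130 held 2, 81 held 3, 35 held 4, 6 held 5, 2 held 6, and 1 each held 7 and 8. Neighbouring combined regions of the same domain had centres a median of 3.18 kb apart (quartiles 1.80 and 5.58 kb, n = 444 neighbour pairs), and neighbouring final regions 3.26 kb (1.26 and 5.85 kb, n = 77).

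**Figure D2:**
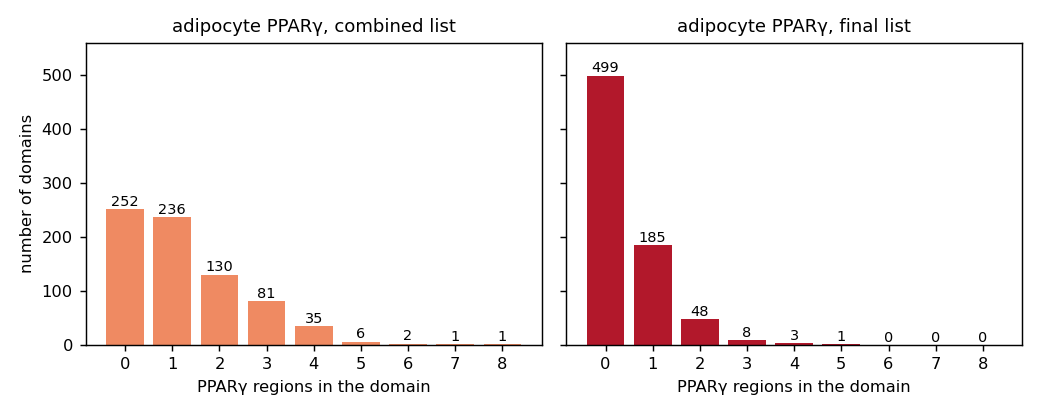
Number of domains (vertical axis) by the number of adipocyte PPARγ regions they hold (horizontal axis), for the combined list on the left and the final list on the right. In the combined list 252 of 744 domains are empty and 1 domain holds 8 regions; in the final list 499 are empty and the highest count is 5.

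The domain with 5 final-list regions was not among the widest. It spanned 15800 bp at chr6:119369751-119385550 and also held 6 combined regions. Its final-list regions had folds of 6.42, 12.01, 9.66, 5.81 and 5.07 from the lower to the upper end. Macrophage H3K9Ace covered 950 bp of it in 1 piece, and no PU.1 or C/EBPβ region lay inside. The domain at chr2:167375801-167398600, the lower end of the chain of 7, held 3 final and 6 combined regions, and 52.2% of it was acetylated in macrophages with 6 PU.1 regions. The domain at chr7:79594451-79618050 held 3 final and 5 combined regions, with folds of 11.9, 5.72 and 6.74, and macrophage acetylation over 8.05% of its span.

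The final-list regions with the highest authors' fold inside domains were at chr6:140591970-140592207 (fold 18.5), chr19:15971733-15972066 (18.25), chr6:52118682-52118996 (16.8), chr6:30594058-30594395 (16.8) and chr5:36199311-36199594 (15.4). The domains that held the regions on chromosomes 19 and 5 had no macrophage H3K9Ace, and in the other 3 domains macrophage H3K9Ace covered between 3.41% and 21.3%. The median fold was 6.55 for the 322 regions inside domains (quartiles 5.76 and 8.03), 6.45 for the 1801 regions in other acetylated regions (5.68 and 7.71) and 6.10 for the 487 outside adipocyte acetylation (5.58 and 7.02). The quartile ranges of the 3 groups overlapped widely.

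Per megabase, final-list PPARγ was denser in domains than in shorter acetylated regions, by a margin that was smallest against the regions nearest in width. The final list had 29.1 region centres per Mb of domain (26.0 to 32.4), against 24.3 per Mb in regions of 5 to 10 kb, a ratio of 1.20 (1.04 to 1.38). It was 1.35 (1.18 to 1.54) over regions of 2 to 5 kb and 1.48 (1.31 to 1.66) over all regions under 10 kb, among which those under 1000 bp had 7.19 per Mb. Over regions of 5 to 10 kb, the ratio was 1.13 (0.961 to 1.33) when the width minimum was 12 kb, 1.14 (0.935 to 1.37) when it was 15 kb and 1.09 (0.866 to 1.36) for PPARγ regions whose fold was 7 or more, and these 3 intervals included 1. The combined list had 83.5 per Mb (78.3 to 89.1) in domains and 79.1 in regions of 5 to 10 kb, a ratio of 1.06 (0.973 to 1.15). Its density in all regions under 10 kb was 76.0 per Mb (74.1 to 77.8). Within the domains the final density was 34.1, 27.2, 28.0 and 27.1 per Mb in the width classes of 10 to 12, 12 to 15, 15 to 20 and at least 20 kb, and these intervals overlapped. The rise in the share of domains with a final-list region across the same classes, 29.3%, 29.1%, 38.5% and 43.7%, therefore came with no rise in density.

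PU.1 and C/EBPβ were somewhat sparser in domains than in regions of 5 to 10 kb. PU.1 had 115.8 centres per Mb (109.6 to 122.4) in domains against 136.7 in the narrower class, a ratio of 0.848 (0.792 to 0.906). C/EBPβ had 73.1 (68.1 to 78.3) against 84.1, a ratio of 0.869 (0.798 to 0.946). Macrophage PPARγ of the final list had 7.22 (5.72 to 8.98) against 7.19, a ratio of 1.00 (0.753 to 1.33), which leaves room for a difference of either sign. The longer macrophage PPARγ list had 48.0 (44.0 to 52.3) against 59.1, a ratio of 0.812 (0.732 to 0.901).

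**Figure D3:**
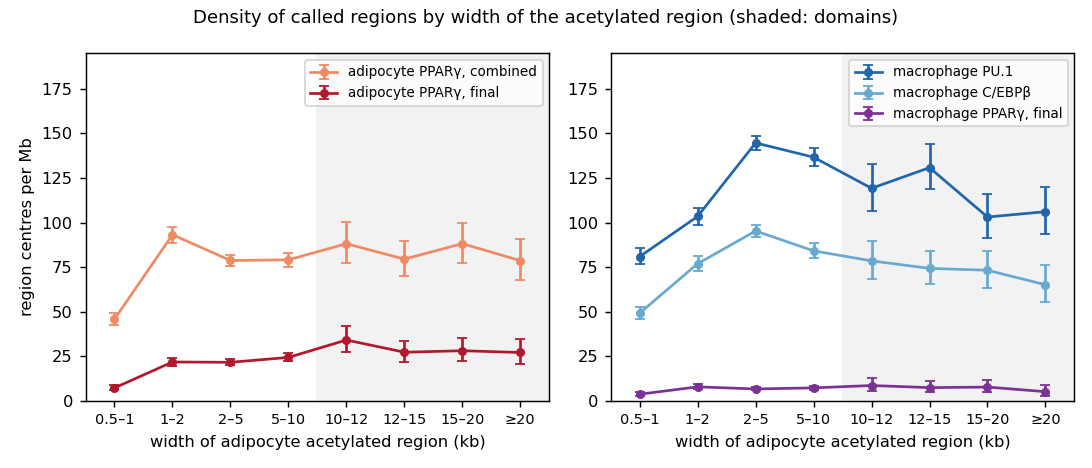
Region centres per Mb (vertical axis) by width class of the adipocyte acetylated region in kb (horizontal axis), for adipocyte PPARγ on the left and macrophage factors on the right; bars are exact 95% Poisson intervals and the shaded classes are the domains. Final-list PPARγ stands between 21.6 and 34.1 per Mb in every class from 1 kb up, while PU.1 is highest at 2 to 5 kb with 144.7 per Mb and stands at 106.1 per Mb in domains of at least 20 kb.

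Most domains met macrophage H3K9Ace, but it covered only 31.6% of their base pairs. Domains were selected on their width in adipocytes, so the shorter macrophage pieces inside them are given as a description. Of the 744 domains, 611 met at least 1 macrophage H3K9Ace region, 82.1% (79.2 to 84.7), against 31.7% of all adipocyte acetylated regions. Exactly 1 piece lay in 154 domains, 20.7% (17.9 to 23.8), and several pieces lay in 457, 61.4% (57.9 to 64.9), against a background of 3.99% with several. The remaining 133 domains, 17.9% (15.3 to 20.8), had none. Among regions of 5 to 10 kb, 76.3% met at least 1 macrophage region and 26.9% met several. Per Mb, domains had fewer macrophage region centres than that class, 143.3 (136.3 to 150.5) against 161.8, a ratio of 0.885 (0.833 to 0.941). A wider span meets more pieces, so the share with several does not set domains apart from narrower regions. The pieces had a median length of 1500 bp inside the domain, and 94.2% of them lay wholly within it. Where a domain held several pieces, the median number was 3 and the highest 13, with a median of 1200 bp between neighbours (quartiles 500 and 2750 bp, n = 1004).

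In base pairs, macrophage H3K9Ace covered 31.6% of the domains, against 36.5% of the regions of 5 to 10 kb and 40.8% of those of 2 to 5 kb. The median domain was covered over 30.2% of its span (quartiles 8.86 and 49.3%). Coverage reached 50% in 177 domains (23.8%) and 80% in 35 (4.70%). The longest single piece took up a median of 21.4% of the domain where there was any, and it reached 50% of the span in 59 domains. Very wide regions were rare in macrophages: 36 autosomal macrophage regions reached 10 kb, and 22 of these overlapped an adipocyte domain.

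The domains with the fullest macrophage coverage were between 10150 and 17050 bp wide. Those at chr11:86392701-86404850 (12150 bp) and chr10:59672051-59682200 (10150 bp) each lay wholly inside 1 macrophage region. chr10:126993551-127004700 was covered over 99.1%, chr2:44923251-44940300 over 95.01% and chr10:127014151-127026450 over 94.7%. Between 3 and 7 PU.1 regions lay in each of the 5. Adipocyte PPARγ of the final list was present in 2 of them, with 1 region each.

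At the other end, the widest domains with no macrophage H3K9Ace were chr1:74020301-74047500 (27200 bp), chr15:84489801-84516350 (26550 bp), chr9:63754251-63780200 (25950 bp), chr10:76155051-76179950 (24900 bp) and chr9:102576001-102599550 (23550 bp). Final-list PPARγ counts were 3, 1, 1, 0 and 1 in that order, and combined counts 3, 1, 3, 0 and 4. The domains at chr1:74020301-74047500 and chr9:63754251-63780200 held no macrophage factor, that on chromosome 15 held 1 PU.1 region and chr9:102576001-102599550 held 1 C/EBPβ region. The domain at chr10:76155051-76179950 held no region of any other list.

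Adipocyte PPARγ was most frequent where macrophages lacked acetylation. The final list had a region in 72 of the 133 domains without macrophage H3K9Ace, 54.1% (45.7 to 62.4), in 59 of the 154 with 1 piece, 38.3% (31.0 to 46.2), and in 114 of the 457 with several pieces, 24.9% (21.2 to 29.1). The 3 classes had similar median widths of 12.8, 12.2 and 13.8 kb, and the class with several pieces was the widest. Per Mb there were 50.6 centres (40.9 to 62.0) in domains without macrophage H3K9Ace, 38.7 (30.7 to 48.2) with 1 piece and 20.8 (17.6 to 24.4) with several. Domains without macrophage acetylation thus exceeded those with several pieces 2.44-fold in density (1.86 to 3.18). The combined list gave the same order at a smaller distance, 81.2% (73.7 to 86.9), 69.5% (61.8 to 76.2) and 60.6% (56.1 to 65.0), with a density ratio of 1.62 (1.37 to 1.90).

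The same order held by coverage. Final-list density was 36.9 per Mb (30.3 to 44.5) in the 189 domains covered by macrophage H3K9Ace over less than 25%, 20.6 (16.3 to 25.8) in the 245 domains covered over 25 to 50%, and 16.6 (11.9 to 22.4) in the 177 covered over 50% or more. No further fall was seen in the 35 of these 177 covered over 80% or more, at 18.2 (8.31 to 34.5). In the combined list these 35 had 78.8 (56.0 to 107.7) and the 177 had 67.8 (58.1 to 78.8). From the side of PPARγ, median macrophage coverage was 15.8% in the 245 domains with a final-list region and 39.3% in the 252 domains with no adipocyte PPARγ in either list. The order was not particular to domains: in regions of 5 to 10 kb the density ratio of those without macrophage acetylation over those with several pieces was 3.25 (2.52 to 4.22) in the final list and 1.98 (1.73 to 2.27) in the combined one. Whether the ratios differ between the width classes was not tested.

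The median of the authors' fold varied little over the classes of macrophage acetylation. Final-list regions had a median fold of 6.79 in domains without macrophage H3K9Ace (n = 93), 6.64 in domains with 1 piece (n = 80) and 6.37 in domains with several (n = 149). Regions with a fold of at least 7 made up 45.2%, 41.2% and 35.6% in that order. Counting only these, the density ratio of domains without over domains with several pieces was 3.10 (2.02 to 4.73). One of the 93 regions in domains without macrophage H3K9Ace was also a macrophage PPARγ region, 1.08% (0.190 to 5.84), against 18 of the 149 in domains with several pieces, 12.1% (7.78 to 18.3).

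Macrophage factors took the opposite order. PU.1 lay in 487 of the 744 domains, 65.5% (62.0 to 68.8), against 18.1% of all adipocyte acetylated regions, and C/EBPβ in 393, 52.8% (49.2 to 56.4), against 13%. Macrophage PPARγ of the final list lay in 70, 9.41% (7.51 to 11.7), against 1.3%, and that of the longer list in 300, 40.3% (36.9 to 43.9), against 8.52%. A wider span holds more of each. Among regions of 5 to 10 kb the shares were 52.2%, 38.2%, 4.37% and 27.8% in the same order. Per Mb, PU.1 and C/EBPβ were sparser in domains than in that class. In domains without macrophage H3K9Ace, PU.1 was found in 14.3% (9.34 to 21.2) and C/EBPβ in 6.02% (3.08 to 11.4). With several macrophage pieces these shares were 83.2% (79.4 to 86.3) and 68.1% (63.6 to 72.2). All 35 domains covered over 80% or more held PU.1, and 34 of them held C/EBPβ.

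**Figure D4:**
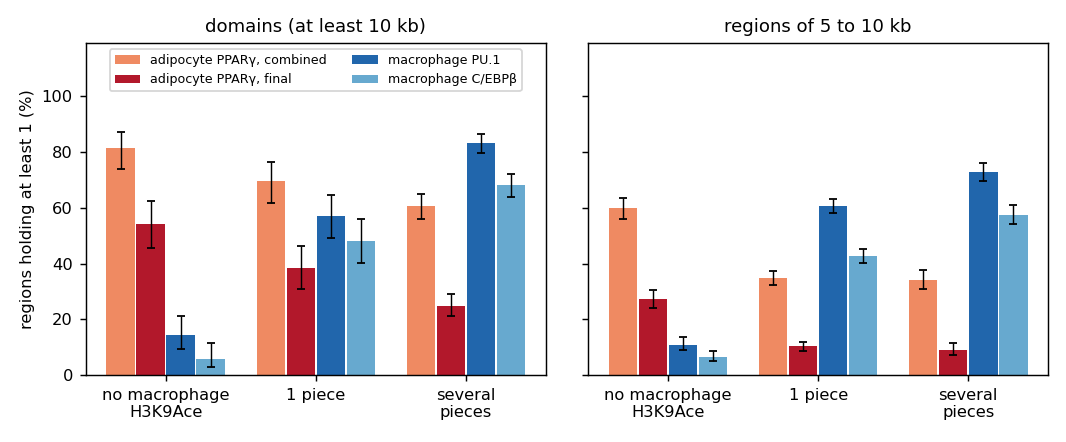
Percentage of regions holding at least 1 region of each list (vertical axis), by macrophage acetylation of the span (horizontal axis), for domains on the left and adipocyte acetylated regions of 5 to 10 kb on the right; bars carry 95% Wilson intervals. In domains, final-list adipocyte PPARγ stands at 54.1%, 38.3% and 24.9% from none to several macrophage pieces, while PU.1 stands at 14.3%, 57.1% and 83.2%.

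PU.1 and C/EBPβ were found together in 332 domains, PU.1 without C/EBPβ in 155 and C/EBPβ without PU.1 in 61. All of PU.1, C/EBPβ and macrophage PPARγ of the final list were present in 60. None of these factors was present in 194 domains, 26.1%, and 109 of those also lacked macrophage H3K9Ace. Of these 109 domains, 3 held a macrophage PPARγ region of the longer list, and 89 held adipocyte PPARγ in at least 1 list. The 109 domains thus made up 18.1% of the 492 with PPARγ (89 domains) and 7.94% of the 252 without (20 domains). These combinations were not counted in shorter acetylated regions, and a wider span holds more of each factor. The counts therefore describe the domains and do not set them apart from narrower regions.

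The domains richest in PU.1 after the one on chromosome 14 were chr10:79540601-79582300 with 11 regions, chr19:10336101-10374350 with 10, and chr14:29436601-29457050, chr19:9047051-9067150 and chr11:120385901-120399250 with 9 each. Macrophage H3K9Ace covered between 45.1% and 87.8% of these 5. They held at most 1 final-list adipocyte PPARγ region each, and between 0 and 4 of the combined list.

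Factors also differed in where they sat relative to macrophage acetylation. In the 744 domains, the parts acetylated in macrophages held 293.2 PU.1 centres per Mb, against 34.0 in the rest of the same domains, a ratio of 8.62 (7.51 to 9.92). For C/EBPβ the values were 194.9 and 16.9, a ratio of 11.6 (9.55 to 14.1), and for macrophage PPARγ of the final list 19.4 and 1.58, a ratio of 12.3 (6.60 to 24.9). Of the centres in domains, 79.9% of PU.1, 84.2% of C/EBPβ and 85.0% of macrophage PPARγ were thus in the 31.6% of base pairs that macrophages acetylate. The shares were similar in regions of 5 to 10 kb, at 80.6%, 84.5% and 80.9%, so this placement was not limited to domains.

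Adipocyte PPARγ showed no such concentration in this pooled split. The final list had 23.7 centres per Mb (18.9 to 29.4) in the macrophage-acetylated parts and 31.5 (27.6 to 35.8) in the rest, a ratio of 0.753 (0.579 to 0.970). The combined list had 87.7 (78.2 to 98.1) and 81.6 (75.3 to 88.3), a ratio of 1.08 (0.935 to 1.23). The rest again included the 133 domains without macrophage H3K9Ace, which had 50.6 final-list and 115.4 combined-list centres per Mb. Over their whole spans, the 611 domains with any macrophage H3K9Ace had 24.8 (21.7 to 28.2) and 77.2 (71.7 to 83.1). All macrophage-acetylated parts lie in these 611 domains. In those parts, the 23.7 final-list centres per Mb were close to the 24.8 of the whole spans. The 87.7 combined-list centres were above the 77.2 of the whole spans, and the intervals overlapped in both lists. Differences between domains therefore enter both ratios, and a split within the 611 domains alone was not made. Neither ratio thus measures placement within a domain. Pooled in the same way, the ratios in regions of 5 to 10 kb were 0.599 (0.483 to 0.738) for the final and 0.980 (0.882 to 1.09) for the combined list. In regions of 2 to 5 kb they were 0.434 (0.364 to 0.516) and 0.673 (0.620 to 0.730). Final-list regions on macrophage-acetylated sequence in domains had a median fold of 6.53 (n = 88), against 6.56 for those off it (n = 234).

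Direct overlap of the adipocyte receptor with macrophage factors was limited. Of the 322 final-list adipocyte PPARγ regions in domains, 25 overlapped PU.1, 7.76% (5.31 to 11.2), 43 overlapped C/EBPβ, 13.4% (10.1 to 17.5), and 24 overlapped macrophage PPARγ of the final list, 7.45% (5.06 to 10.9). In other acetylated regions these shares were 10.9% (9.53 to 12.4), 15.4% (13.8 to 17.1) and 8.44% (7.24 to 9.81), so the intervals overlapped in each case. Of the 81 macrophage PPARγ regions in domains, 25 overlapped the final adipocyte list, 30.9% (21.9 to 41.6), and 46 the combined list, 56.8% (45.94 to 67.03). In other acetylated regions these shares were 24.8% (21.5 to 28.4) and 58.4% (54.5 to 62.2). PU.1 and adipocyte PPARγ of either list were both present in 304 domains. Over all domains, those without adipocyte PPARγ included, 185 of the 1290 PU.1 regions overlapped a combined-list region, 14.3% (12.5 to 16.4). In other acetylated regions the share was 11.1% (10.5 to 11.7). For C/EBPβ it was 22.5% (19.8 to 25.5) in domains and 17.4% (16.6 to 18.3) in other acetylated regions. Seen from PU.1 and C/EBPβ, overlap with the combined list was thus somewhat more frequent in domains. Seen from the combined list, the shares were close. PU.1 was overlapped by 16.8% of its regions in domains and 16.1% in other acetylated regions, and C/EBPβ by 17.0% and 16.9%.

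Adipocyte PPARγ was also sparser near the edges of a domain. The part more than 2 kb from either edge held 34.2 final-list centres per Mb (30.3 to 38.4), against 15.1 (11.0 to 20.2) in the outer 2 kb on each side, a ratio of 2.26 (1.64 to 3.17). The combined list had 93.1 per Mb further in (86.6 to 100.0) and 57.5 in the outer parts (49.2 to 66.7), a ratio of 1.62 (1.37 to 1.92). PU.1 differed less, with 119.9 further in and 104.8 in the outer parts, a ratio of 1.14 (1.01 to 1.30), and C/EBPβ had a ratio of 1.25 (1.06 to 1.48). Macrophage H3K9Ace itself covered 34.0% of the inner and 24.8% of the outer base pairs.

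Beyond the edges, the 10 kb on either side, with other domains left out, held 6.87 final-list centres per Mb (5.52 to 8.45), 25.4 combined-list centres (22.7 to 28.3), 52.9 PU.1 centres (49.1 to 57.1) and 31.9 C/EBPβ centres (28.9 to 35.1). Each was below its value in the outer 2 kb of the domains. Of these flanks, 42.1% was acetylated in adipocytes in shorter regions, and 9.18% was acetylated in macrophages.

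**Figure D5:**
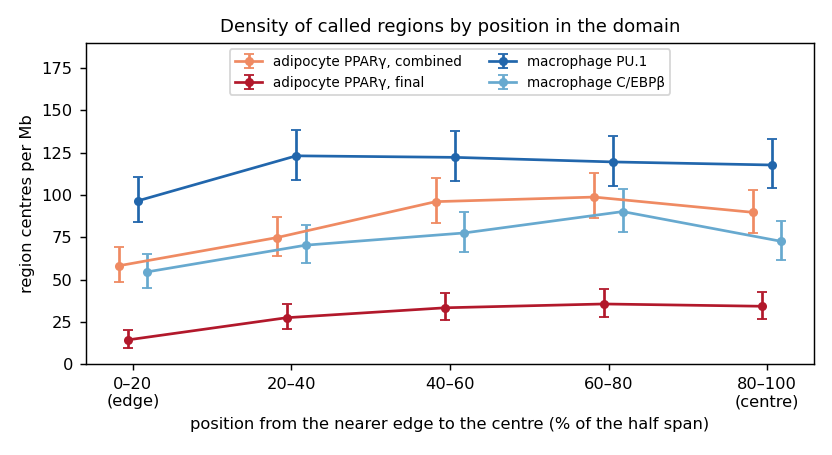
Region centres per Mb (vertical axis) in 5 equal steps from the nearer edge of the domain to its centre (horizontal axis, in % of that distance), over all 744 domains, with exact 95% Poisson intervals. Final-list adipocyte PPARγ stands at 14.4 per Mb in the step at the edge and between 33.4 and 35.6 in the 3 steps nearest the centre.

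The 492 domains with adipocyte PPARγ in either list had a median width of 13.7 kb, against 12.4 kb for the 252 with none. PU.1 was present in 61.8% (57.4 to 66.0) of the 492 and in 72.6% (66.8 to 77.8) of the 252. Macrophage H3K9Ace was present in 78.0% (74.2 to 81.5) of the 492 and in 90.1% (85.8 to 93.2) of the 252. C/EBPβ differed little, at 53.05% (48.6 to 57.4) of the 492 and 52.38% (46.2 to 58.5) of the 252. The longer macrophage PPARγ list also differed little, at 40.65% and 39.68%. Macrophage PPARγ of the final list went the other way, at 11.99% (9.41 to 15.2) and 4.37% (2.45 to 7.65). The domains without adipocyte PPARγ were thus slightly narrower and more often held macrophage H3K9Ace and PU.1, but less often macrophage PPARγ of the final list. The widest of them were chr2:27553251-27584750 (31500 bp), chr17:25500601-25525600 (25000 bp), chr10:76155051-76179950 (24900 bp), chr7:45568151-45592350 (24200 bp) and chr5:123388001-123411900 (23900 bp). Macrophage acetylation of these 5 ranged from none to 64.0% of the span.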

How the data were processed

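Per the labels' protocols, the authors aligned 36 bp reads with ELAND (mm8, at most 2 mismatches) and kept those with a single best match; macrophage PPARγ joined 2 sequencing runs. Reads that match several places equally well were therefore lost. Caller settings, control and total reads were not given in the sources used here. Targets were taken from the titles; the description field names PPARγ throughout. The deposited lists give positions; per the file headers, the PPARγ lists other than the combined one also give a fold (ratio to a control not named), a peak height (signal) and a false discovery rate, read as a percent and 0.34 in every row of the final adipocyte list. These are the authors' values.

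Of the adipocyte H3K9Ace list, 20 repeated rows were dropped. The authors masked intervals of input bias before depositing their lists; no domain overlapped a masked interval, and 3 had one within 10 kb. Sex chromosomes were left out. Presence means an overlap of at least 1 bp; densities count region centres per Mb of span, and their ratios carry exact conditional 95% intervals. Domains named are the widest, those with most PPARγ, most PU.1 or most macrophage coverage, and the widest without PPARγ or macrophage H3K9Ace; high-fold PPARγ regions, a domain tied in PU.1 count, chains and chromosomes were named after their values were seen. Members and comparisons were chosen with earlier results of these data known. No test was run, since each group holds 1 library. Interval code was tested on simulated data. Python 3.11.15, pandas 2.3.3 and scipy 1.17.1 were used. Alternatives are given in the closing section. No mm8 sequence or annotation was used here, so no gene or sequence is given.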

Additional observations from a re-analysis of the deposited data

How the results depend on the processing

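Over 77 alternatives to 12 results, 60 values stayed inside the 95% interval of the reported value, 17 left it and none turned the direction of a ratio. Most of the 17 follow from the width minimum, since wider spans hold more. With minima of 8, 12 and 15 kb the share of domains with combined-list PPARγ was 59.9%, 69.5% and 77.0%, and that with several macrophage pieces 54.3%, 67.7% and 69.8%; with 8 and 15 kb the share with final-list PPARγ was 26.8% and 40.3%. At 15 kb PU.1 lay in 69.8% and C/EBPβ in 63.3% of domains, and the final-list density ratio of domains without over domains with several macrophage pieces was 1.73 (1.08 to 2.68), against 2.44 as reported; the cause was not tested. Requiring a fold of at least 7 left final-list PPARγ in 15.9% of domains. Keeping only macrophage regions of at least 1000 bp put the domains without one at 24.9% and those with several at 47.0%, and joining macrophage pieces up to 1000 bp apart put the share with several at 49.2%. Merging adipocyte regions up to 500 bp apart gave 1365 domains with a macrophage coverage of 27.9%. The longer macrophage PPARγ list had a region in 40.3% of domains. The alternatives for the ratios of domains without over domains with several pieces were chosen after seeing the data. Leaving out chromosome 6 moved no value out of its interval. Unknown depth limits all lists, so a region not listed does not show that a factor was absent. No paired analysis was possible because each group holds 1 library.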
